A study of Mus musculus with 144 samples.

Results

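The blood of mice killed 12 months after exposure to 80 µg of multi-walled carbon nanotubes (MWCNT) was compared with that of vehicle mice, which were given only the dispersion medium (DM) and killed at the same time. The comparison was made of the 16 arrays whose labels give month 12 and either the 80 µg dose or DM, which were 8 arrays of each group and 16 of 144 in the series. The other arrays came from mice given lower MWCNT doses (1, 10 and 40 µg) or, as a positive control, 120 µg of crocidolite asbestos, and from months 1 and 6, again 8 to a group. All mice were C57BL/J6 males, 7 weeks old when obtained and housed 1 to a cage, and both groups compared here received the medium in which the tubes were dispersed, with the tubes in 1 and without them in the other. Each array measured the low-molecular-weight RNA of 1 mouse. The replicate numbers used below are only names, as the titles end in a number for each array but no label counts replicates within a group.

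MicroRNAs (miRNAs) are short RNAs that guide Argonaute proteins to partly matching sites in messenger RNAs, which lowers the translation or the stability of those messages. RNA extracted from blood holds the miRNAs of red cells, white cells and platelets as well as those in plasma, so a level in blood is a sum over many sources. Fewer cells of a type and less miRNA per cell cannot be told apart in such a sample. MWCNT are rigid fibres of rolled graphene that stay in the lung for a long time and are studied for inflammation and fibrosis there. Month 12, the last time point, at the highest dose, asks whether a blood miRNA signal was present long after exposure.

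The arrays carried 1262 probes for mouse miRNAs, each spotted 3 times, and they are named below by the probe identifiers of the files. No table used here pairs these identifiers with miRNA names. For that reason miRNA families, the marker miRNAs of blood cells and mature sequences could not be looked up, and the labelled tissue was not checked against markers. For the comparison at month 12, 2 probes are named in each direction, and the 2 probes called at month 6 are named where the months are compared. Values are log2 intensities after background correction with an added offset of 50 and quantile normalization, and the offset compresses the differences of dim probes. Tests were run on the 742 probes that exceeded the detection threshold in every mouse of at least 1 of the 18 groups. A probe was called when its limma p was under 0.05, its Benjamini-Hochberg adjusted p was under 0.1 and its change was at least 1.5-fold.

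No difference between the 2 groups was found in the quality measures of the arrays, although single arrays varied. Mean log2 intensity of the tested probes before scaling was 8.75 ± 0.16 in 80 µg mice and 8.65 ± 0.19 in DM mice (SD, n = 8 each, exact permutation test, two-sided, p = 0.255). Between 655 and 1152 mouse probes were above threshold in 80 µg mice and between 636 and 1070 in DM mice (exact permutation test, two-sided, p = 0.613). None of the 5 array measures compared, which also took in the threshold, the local background and the share of bad spots, had an adjusted p under 0.766 in this exact test over 12870 splits. Of the tested probes, 564 were above threshold on all 16 arrays, 37 on all 8 arrays of 80 µg mice without being so in DM mice, and 30 on all 8 arrays of DM mice without being so in 80 µg mice. All 3 spots of 18 probes read the highest intensity of the scanner on every array of at least 1 group, and 16 of these did so on all 16 arrays. Those 16 could show no difference in raw intensity, and any level read at the top of the scale was a bound only. After normalization the differences of the 18 probes ran from -0.06 to 0.08. A further 20 probes had at least 1 spot at the top of the scale on at least 1 of the 16 arrays, which makes 38 in all, each among the brightest of the tested probes.

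DM replicate 1 stood apart from the other arrays. Its median correlation with the other 7 DM arrays over the 742 probes was 0.965, against 0.982 to 0.993 for the remaining DM arrays and 0.987 to 0.993 within the 80 µg group. Its brightness of 8.65 and its 688 probes above threshold were within the range of its group. The widest axis of variation between mice of the same group held 35.1% of the within-group variance of the 144 arrays. Scores on it were taken with the mean of each group removed, so they show the spread within a group and not a difference between groups. The 80 µg mice scored between -2.91 and 2.82, DM replicate 1 scored -14.39, and the other DM mice scored between -4.89 and 5.64. The median SD of a probe was smaller in 80 µg mice (0.156) than in DM mice (0.192), and 464 of 742 probes had the larger SD in DM mice, a difference that was not tested.

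**Figure D1:**
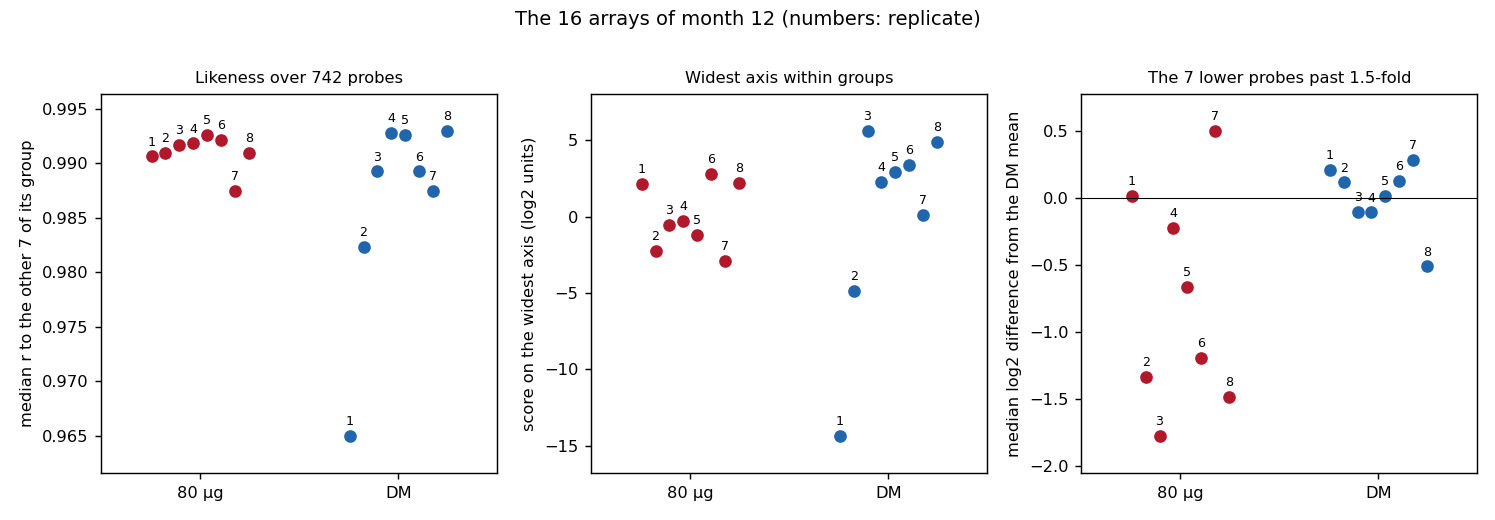
The 16 arrays of month 12, with 80 µg MWCNT mice left of DM mice and each point numbered by replicate. The left panel gives the median Pearson correlation with the other arrays of the group over 742 probes. The middle panel gives the score on the widest within-group axis in log2 units, with the mean of each group removed, so the 2 groups are centred alike there by construction. The right panel gives the median log2 difference of the 7 lower probes past 1.5-fold from their DM mean. DM replicate 1 is lowest in the left and middle panels, and 5 of the 80 µg mice lie below every DM mouse in the right panel.

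No mouse miRNA probe was called between 80 µg mice and DM mice at month 12 (0 of 742, 0%, limma). At an unadjusted p under 0.05, 44 probes (5.93%) differed, of which 16 (2.16%) were higher and 28 (3.77%) were lower in 80 µg mice. An unadjusted threshold of 0.05 passes about that share of probes with no difference, and the lowest adjusted p was 0.685. At thresholds of 0.01 and 0.1 the counts were 4 (0.539%) and 78 (10.5%), and 384 probes (51.8%) had a p under 0.5. The unmoderated 2-group test of the methods likewise called none after adjustment and gave 52 probes at an unadjusted p under 0.05. For no probe did the values of the 2 groups fail to overlap (0 of 742, 0%).

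The differences were small for most probes. The median log2 difference (80 µg minus DM) was -0.01, and the 5th and 95th percentiles were -0.23 and 0.29. There were 356 probes higher and 386 lower in 80 µg mice. Leaving out the 38 probes with a spot at the top of the scale, the 95% interval of the difference lay inside 1.5-fold in either direction for 587 of 704 probes (83.4%), and inside 2-fold for 673 (95.6%). For these probes a change of that size on the compressed scale was outside the interval of the difference, while for the remaining probes it was not.

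On this compressed scale, precision fell with brightness. In the deposited table, which has no offset and is scaled otherwise, the median SE of all probes was 0.21, against 0.11 here. There the SE of the dim probe ORB_1210439, described below, was 0.195, against 0.045 here. That of the brighter probe 3197 was 0.312, against 0.287. All 247 of the dimmest probes had intervals inside 1.5-fold, where the offset holds values close together, compared with 218 of the 247 in the middle and 122 of the 210 brightest with no spot at the top of the scale. Of the 44 probes at an unadjusted p under 0.05, 18 were among the dimmest, 13 in the middle and 13 among the brightest. Among the 60 most abundant probes, whose mean level was at least 13.84, 22 had no spot at the top of the scale on any of the 16 arrays, 15 of those had an interval inside 1.5-fold and 1 had an unadjusted p under 0.05.

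**Figure D2:**
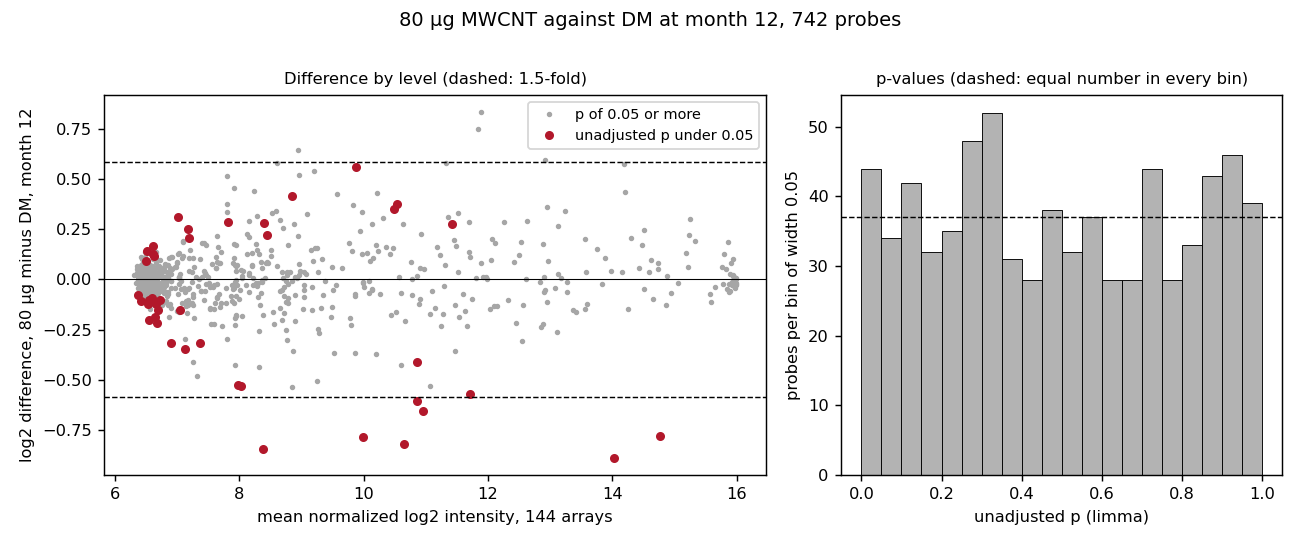
Left: log2 difference (80 µg minus DM, month 12) of each of the 742 probes against its mean normalized log2 intensity over 144 arrays, with the 44 probes at an unadjusted p under 0.05 in red and dashed lines at 1.5-fold. Right: the number of probes in each p-value bin of width 0.05, where the lowest bin holds 44 probes and the dashed line marks an equal number in every bin; the lowest bin is not the highest.

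The 2 higher and the 2 lower probes with the smallest p are described as values, since each had an adjusted p of 0.685 (limma, Benjamini-Hochberg). Probe 3197, which ranked 178th of the 742 by mean level, had a lowest, median and highest value of 8.73, 9.58 and 10.89 in 80 µg mice and of 9.99, 10.50 and 11.06 in DM mice. The 80 µg mice were spread widely, 5 of them lay below every DM mouse, and replicates 1 and 7 were above the DM median, so the groups overlapped. The mean was 9.73 ± 0.81 in 80 µg mice and 10.51 ± 0.32 in DM mice (SD, n = 8 each), a log2 difference of -0.78 ± 0.29 (SE, 95% interval -1.35 to -0.22, unadjusted p = 0.00725 by limma). The SD was 0.613 between mice of a group and 0.138 between single spots of a mouse. By these, the error of a mean of 3 spots came to a fraction of 0.017 of the variance between mice. The spot SD was taken before quantile normalization and the SD between mice after it, so such fractions are approximate. The probe was lower in 80 µg mice within each of the 4 scan days shared by the groups, with differences of -0.51, -1.05, -0.17 and -0.56, of which the last 2 set a single array against a single array. Each of the 3 shared slides, 1 array of each group and part of these scan days, gave -1.21, -0.24 and -0.56.

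Probe ORB_1210663, a dim probe, had a lowest, median and highest value of 6.27, 6.43 and 6.98 in 80 µg mice and of 6.55, 6.68 and 6.84 in DM mice. In 80 µg mice 6 of the 8 values lay below the lowest DM value, and the highest, that of replicate 7, lay above every DM mouse. The difference was -0.20 ± 0.08 (SE, 95% interval -0.35 to -0.05, unadjusted p = 0.00781 by limma). On scan day 5, which held replicate 7 and a single DM array, it ran the other way at 0.14.

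Probe ORB_1210439, also dim, had a lowest, median and highest value of 6.42, 6.66 and 6.70 in 80 µg mice and of 6.39, 6.48 and 6.66 in DM mice. All 80 µg mice but replicate 7 lay between 6.63 and 6.70, and 7 of the 8 were above the DM median. The difference was 0.13 ± 0.05 (SE, 95% interval 0.04 to 0.22, unadjusted p = 0.00559 by limma). Taken in the same approximate way, the error of a mean of 3 spots came to a fraction of 0.534 of the variance between mice. On scan day 5 its difference was -0.16.

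Probe ORB_0908025, the other higher probe, had a lowest, median and highest value of 6.44, 6.57 and 6.78 in 80 µg mice and of 6.33, 6.40 and 6.64 in DM mice. All 8 of the 80 µg mice were above the DM median, while 3 DM mice reached into their range, and the probe was above threshold on 8 of the 80 µg arrays and 6 of the DM arrays. The difference was 0.14 ± 0.05 (SE, 95% interval 0.03 to 0.25, unadjusted p = 0.0106 by limma). The error of a mean of 3 spots came to approximately 0.353 of the variance between mice, taken as before. The difference was -0.02 on scan day 5 and -0.10 on slide 21, the other 2 shared slides giving 0.07 and 0.20.

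The sign of both higher probes turned under 1 alternative. With normexp background correction and a trimmed mean in place of quantile normalization, the median of all 742 probes moved to -0.12, ORB_1210439 to -0.06 and ORB_0908025 to -0.04. Relative to that median they were 0.06 and 0.08 higher in 80 µg mice, and with the background subtraction and trimmed-mean scaling of the methods the differences were 0.33 and 0.38. With normexp and the trimmed mean, the split of probes at an unadjusted p under 0.05 became 4 higher and 23 lower, against 16 and 28 with quantile normalization. Both lower probes kept their direction there, at -0.80 for 3197 and -0.37 for ORB_1210663.

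**Figure D3:**
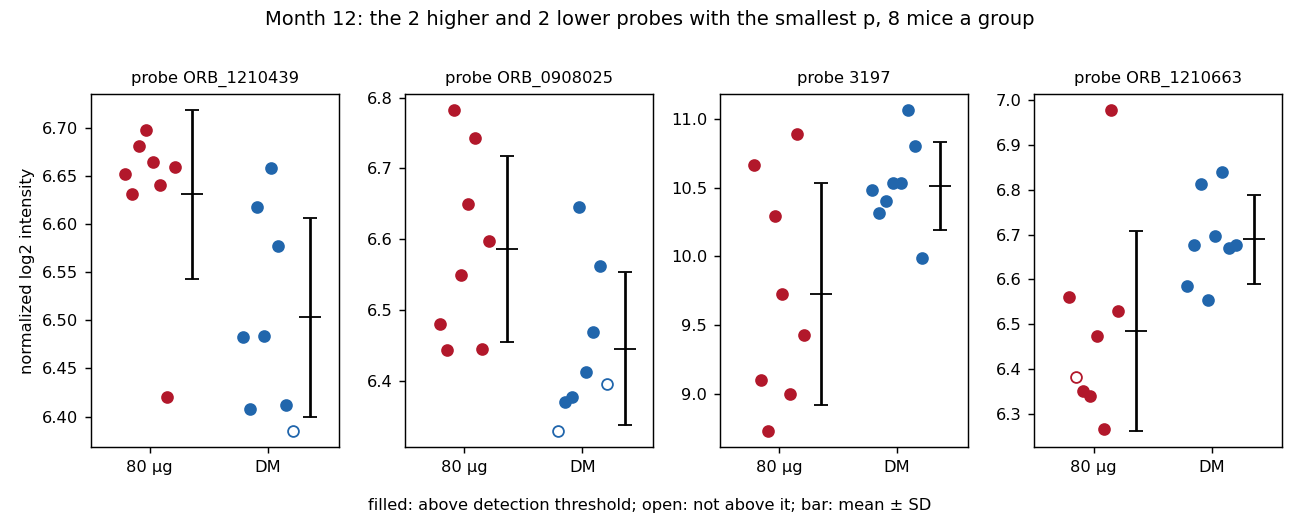
Normalized log2 intensity of the 4 named probes in each mouse of month 12, 80 µg MWCNT left of DM, with black bars for the mean ± SD of 8 mice and open points for values not above the detection threshold. The 2 groups overlap for every probe, and 80 µg replicate 7 is the mouse that runs against its group for ORB_1210439 and ORB_1210663.

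At the other exposures of month 12, which share the same DM mice and so are not independent comparisons, probe 3197 averaged 10.51 ± 0.32 in DM mice, 10.10 ± 0.76 with 1 µg, 10.11 ± 0.73 with 10 µg, 9.65 ± 0.60 with 40 µg and 9.73 ± 0.81 with 80 µg MWCNT, and 10.44 ± 0.42 with crocidolite (SD, n = 8 each). The DM mean of month 12 was the highest of all 18 group means of the series for this probe, and its SD was the second smallest of the 18. The 80 µg mean ranked 15th from the top, with the second largest SD. For ORB_1210663 the means were 6.69 ± 0.10 in DM mice, 6.65 ± 0.24 with 1 µg, 6.63 ± 0.12 with 10 µg, 6.54 ± 0.15 with 40 µg, 6.49 ± 0.22 with 80 µg MWCNT and 6.70 ± 0.16 with crocidolite. For ORB_1210439 the DM mean of month 12 was the lowest of the 18, and for ORB_0908025 it was the 17th from the top.

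**Figure D4:**
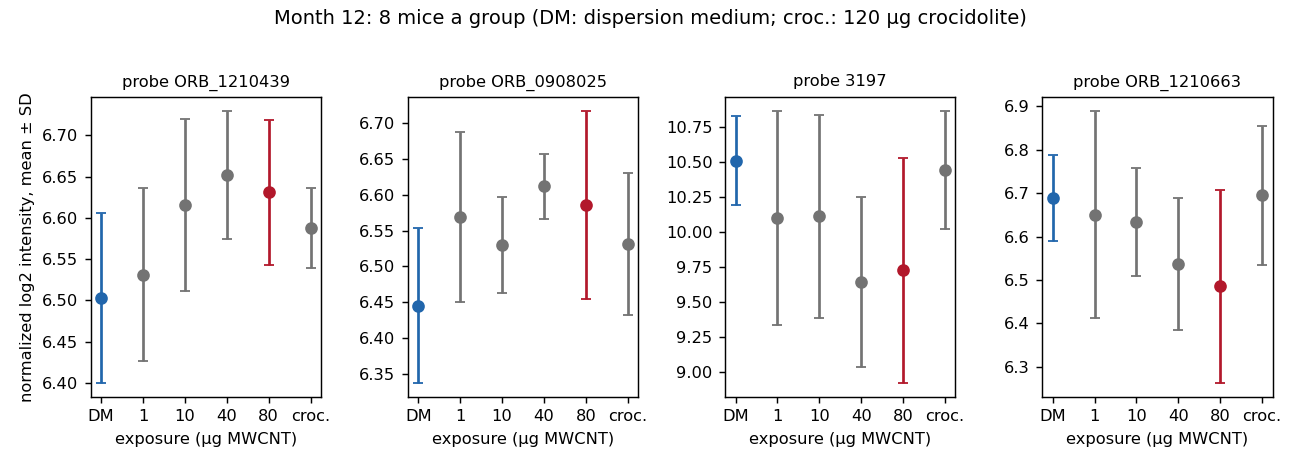
Mean ± SD (n = 8 mice each) of normalized log2 intensity of the 4 named probes in the 6 exposure groups of month 12, from DM through 1, 10, 40 and 80 µg MWCNT, with 120 µg crocidolite last. The error bars of neighbouring doses overlap for each probe, and DM is the highest of these groups for 3197 and the lowest for ORB_1210439 and ORB_0908025.

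Larger differences were few and came as 2 sets, which were put together after their values were seen and are therefore described with no test. Past 1.5-fold there were 11 probes, 7 lower and 4 higher in 80 µg mice. The 7 lower probes, 3197 among them, had log2 differences of -0.89 to -0.61 with unadjusted p of 0.00725 to 0.0416 (limma). On 1 array of 80 µg mice 1 of these 7 probes read the highest intensity in all 3 spots, so its value there was a lower bound. All of the 7 had the larger SD in 80 µg mice, 0.731 to 1.05, against 0.191 to 0.485 in DM mice.

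These 7 probes moved together from mouse to mouse. Across the 128 arrays outside this comparison, with group means removed, their 21 pairs correlated at 0.71 to 0.93 with a median of 0.84, whereas 3.19% of all pairs of tested probes exceeded 0.5 over the same 128 arrays. The pairs share arrays and their normalization, and whether the probes overlap in sequence is not known here. Their median difference from the DM mean was -1.78 in 80 µg replicate 3, -1.49 in replicate 8, -1.33 in replicate 2, -1.20 in replicate 6, -0.66 in replicate 5, -0.22 in replicate 4, 0.02 in replicate 1 and 0.51 in replicate 7, against -0.51 to 0.29 in DM mice. Replicate 3 was the lowest of the 8 for all 7 probes. Without it the differences were -0.70 to -0.48, and 5 of the 7 stayed past 1.5-fold.

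Against the DM mice of month 12, the median difference of the 7 probes was -0.41 with 1 µg, -0.39 with 10 µg, -0.81 with 40 µg and -0.78 with 80 µg MWCNT, and -0.06 with crocidolite, all from the same DM mice. DM at month 12 had the highest mean of the 18 groups for 3 of the 7 probes and was among the 3 highest for 5, while the 80 µg group of month 12 was among the 3 lowest for 3. The SDs of the other MWCNT doses, 0.762 to 1.21 with 1 µg, 0.697 to 0.974 with 10 µg and 0.602 to 0.890 with 40 µg, were nearer to those of the 80 µg mice than to those of the DM mice. With crocidolite they were 0.317 to 0.716. The SD of DM at month 12 was itself the smallest of the 18 groups for 2 of the 7 probes and among the 3 smallest for 4. Whether exposure or a narrow DM group made the contrast in SD was not tested. At months 1 and 6, each with its own DM mice, the 80 µg differences of the 7 probes ran from -0.24 to 0.28 and from -0.35 to 0.10, and none had an unadjusted p under 0.05.

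The 4 higher probes past 1.5-fold rested on DM replicate 1. Their differences were 0.60 to 0.83 with unadjusted p of 0.160 to 0.333 (limma), the SDs were 0.408 to 0.891 in 80 µg mice and 1.14 to 1.35 in DM mice, and DM replicate 1 was the lowest DM value for all 4. Without it the differences were 0.17 to 0.43 and none was past 1.5-fold. At months 1 and 6, each with its own DM mice, the 80 µg differences of these 4 probes ran from -0.86 to -0.47 and from 0.78 to 1.26. Their lowest unadjusted p was 0.142 at month 1 and 0.0594 at month 6 (limma).

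Counts of probes moved with single mice. The array of 80 µg replicate 3 was the lowest of its group for 13 of the 28 lower probes and for 69 of all 742. The 28 were picked for low values in the same mice. Without this array, 25 probes had an unadjusted p under 0.05, 11 higher and 14 lower, and 24 of them were among the 44. Without DM replicate 1 there were 37, 12 higher and 25 lower, and 28 of them were among the 44. Leaving out 80 µg replicate 7 gave the lowest adjusted p of any setting, 0.198, with no probe called. Among the 28 lower probes, 15 others correlated with 3197 at over 0.5 within groups, over all 144 arrays. Of all pairs of tested probes, 3.09% did so over these arrays. The arrays that picked the 28 are among them, so the count is a description only.

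The 80 µg effect was then set against those of the earlier months, which used other mice and other DM arrays. At month 1, 0 of 742 probes were called (0%) and 39 (5.26%) had an unadjusted p under 0.05, 20 (2.7%) higher and 19 (2.56%) lower in 80 µg mice. At month 6, 2 probes were called (0.27%) and 150 (20.2%) had an unadjusted p under 0.05, 61 (8.22%) higher and 89 (12%) lower. Neither probe called at month 6 was called at month 12. Probe 1323, which was -0.68 ± 0.16 at month 6, averaged 11.84 ± 0.31 in 80 µg mice and 11.83 ± 0.46 in DM mice at month 12, a difference of 0.01 ± 0.16 (SE, unadjusted p = 0.973 by limma). Probe ORB_1210679, which was -0.65 ± 0.19 at month 6, averaged 10.43 ± 0.42 in 80 µg mice and 10.63 ± 0.43 in DM mice at month 12, a difference of -0.21 ± 0.19 (SE, unadjusted p = 0.283 by limma).

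The change of the effect between months was tested directly. For month 12 minus month 1, no probe had an adjusted p under 0.1 (0%, limma) and 81 (10.9%) had an unadjusted p under 0.05. For month 12 minus month 6, no probe had an adjusted p under 0.1 (0%) and 44 (5.93%) had an unadjusted p under 0.05. With slide as a random block 2 probes passed in this last contrast, and with scan day, array position or brightness as a term 1 passed; array position also passed 1 probe for month 12 minus month 1. The 4 named probes differed by 0.10 or less in size between 80 µg and DM mice at both earlier months, with 0.07 and 0.05 for 3197, -0.06 and 0.10 for ORB_1210663, -0.02 and 0.01 for ORB_1210439, and -0.04 and -0.02 for ORB_0908025 at months 1 and 6.

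Over the 742 probes, the month 12 differences correlated with those of month 1 at r = -0.39 and with those of month 6 at r = 0.43 (Spearman -0.39 and 0.36), a description across probes that share arrays and move together. The direction was the same as at month 1 for 268 probes (36.1%) and as at month 6 for 467 (62.9%). Without DM replicate 1 of month 12 the correlations were -0.02 and 0.07, and the same-direction counts were 317 (42.7%) and 414 (55.8%). The differences of month 12, month 1 and month 6 correlated with the widest within-group axis at 0.52, -0.85 and 0.83. With that axis removed the correlations between months were 0.10 and -0.01. The axis was taken from the same 144 arrays, DM replicate 1 among them. It held 71.5% and 69.4% of the sum of squares of the month 1 and month 6 differences. Removing it takes out most of what those months could share with month 12, so no conclusion is drawn from the fall. Mean log2 intensity of the tested probes before scaling, beside these, was 8.75 ± 0.16 in 80 µg mice and 8.65 ± 0.19 in DM mice at month 12. It was 8.54 ± 0.25 in 80 µg mice and 8.66 ± 0.24 in DM mice at month 1. At month 6 it was 8.64 ± 0.14 in 80 µg mice and 8.40 ± 0.36 in DM mice (SD, n = 8 each). With this intensity as a linear term of the fit the correlations were -0.29 with month 1 and 0.32 with month 6.

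**Figure D5:**
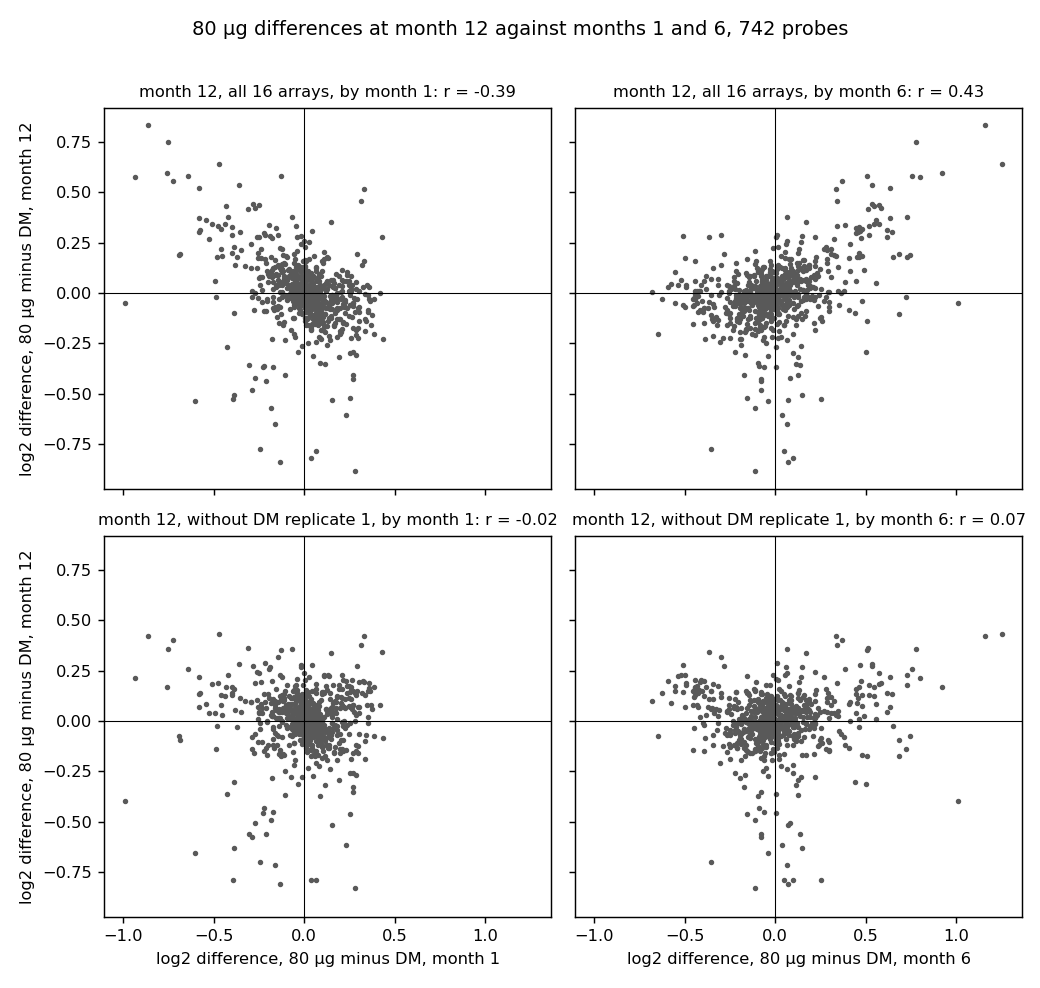
Log2 difference (80 µg minus DM) of each of 742 probes at month 12 against that at month 1 (left) and month 6 (right), with all 16 arrays of month 12 (top) and without DM replicate 1 of month 12 (bottom). Leaving out that array takes the correlation to -0.02 with month 1 and 0.07 with month 6, against -0.39 and 0.43 with all arrays.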

How the data were processed

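According to the study's methods, blood RNA of low molecular weight was labelled with 1 fluorescent dye and hybridized to custom multi-species arrays, and the authors extracted the spots with GenePix. The deposited intensity values are the median foreground and local background of each spot, linear and not normalized. The deposited log2 table holds the authors' normalized values of 1262 mouse probes, and each array's column matched, up to a constant, the average log2 of foreground minus background over good spots (SD of at most 1.21e-09). The authors' statistical comparisons were not used, and 1 further scan, which no label names, was not used.

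The processing and the members of the comparison were chosen with earlier results of these data known. Background was corrected by normexp (offset 50) and log2 values of the 3 spots were averaged, without spots marked bad, and quantile normalized over the 144 arrays. The threshold on each array was the 10% trimmed mean of 21 empty spots plus 5 SD, which differs from that of the study. The filter kept 742 probes (58.8%). limma 3.58.1 (R 4.3.3) was fitted on 18 group means, and the script was tested on simulated data. There were 38 slides and 7 scan days, and the number of arrays limits the precision (median SE 0.11). In this comparison 15 of the 16 arrays lay at slide positions A and C and 1 array of 80 µg mice at D, and DM replicate 7 came from a slide that had been dipped again and rescanned. The probes named in the comparison are the 2 higher and 2 lower with the smallest unadjusted p, and the 2 called at month 6, which were added after their values were seen. Lists of erythroid, let-7, miR-17 cluster, fibrosis and blood cell miRNAs were planned but could not be applied, as 0 probe identifiers were paired with names. Alternatives covered background, scaling, filter, slide, scan day, position, brightness, thresholds, samples fitted, the 2-group ANOVA of the methods and each array left out. The correlation between months under these settings was added after seeing the data.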

Additional observations from a re-analysis of the deposited data

Results flagged for a closer look

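Dixon's test was applied to the 8 values of each group for 20 combinations of group and measure or probe, of which chance flags about 1 in 20, and 3 had a mouse far from the others. For probe ORB_1210439, 80 µg replicate 7 was at 6.42, with the next of its group at 6.63. For probe ORB_1210663, the same mouse was at 6.98, with the next at 6.56. For probe 1323, DM replicate 2 was at 10.86, with the next at 11.74.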

How the results depend on the processing

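No probe was called between 80 µg and DM mice at month 12 under any of the alternatives run or with any of the 16 arrays left out (range 0 to 0). The number at an unadjusted p under 0.05 ranged from 25 to 52 with single arrays left out, and was 27 with the subtraction and scaling of the methods, 27 with normexp and a trimmed mean, 28 in the deposited table, 23 of 411 probes above threshold on all arrays and 64 of 1262 with no filter. The difference of ORB_1210439 became -0.0571 and that of ORB_0908025 became -0.0443 with normexp and the trimmed mean, where the median of all probes moved to -0.12, while the subtraction and scaling of the methods gave 0.327 and 0.377. In the deposited table, which has no offset, the differences of the 4 named probes were 0.33, 0.38, -0.88 (3197) and -0.57 (ORB_1210663). For month 12 minus month 1, 1 probe passed with array position as a term. For month 12 minus month 6, 2 passed with slide as a random block, ORB_1210244 (adjusted p = 0.0445, limma) and ORB_1210488 (0.0822), and 1, ORB_1210244 (0.104 without such a term), with scan day, position or brightness as a term; these 2 probes are named after their values were seen. The causes were not tested. The difference in bad spots, -0.0033 percentage points, became 0.00047 without the array at position D. Correlations between months ran from -0.50 to -0.02 (months 12 and 1) and from 0.07 to 0.52 (months 12 and 6) with arrays left out. They became 0.0981 and -0.00766 with the widest axis removed. That axis was taken from the same arrays, and no conclusion is drawn from its removal. No paired analysis was possible because the labels give no replicate numbers shared between the groups; slide as a random block, with 3 slides holding both groups, called 0 probes at month 12 and gave 47 at an unadjusted p under 0.05. Signal near background limits the dim probes, whose changes the offset compresses, and the top of the scale limits the brightest.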
